A study of Mus musculus with 12 samples.

Results

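The genes described here are the 4 genes Chat, Slc5a7, Prph and Chodl, which serve acetylcholine transmission and the motor axon. They were chosen by gene symbol, and are 4 of the 205 different genes that the 3 deposited tables list. RNA was sequenced from mouse spinal motor neurons at E12.5, sorted by fluorescence from cords carrying Hb9::GFP, a reporter that marks motor neurons through the regulatory sequence of the motor neuron gene Hb9 (Mnx1). The groups were brachial PbxMNdelta mutants, brachial control littermates, thoracic PbxMNdelta mutants and thoracic control littermates, with 3 libraries in each (named A, B and C), and all of them carried Hb9::GFP on a highly mixed C57BL/6 background. Brachial motor neurons innervate the forelimb, and thoracic ones the body wall and the sympathetic ganglia. The genotype name denotes a motor neuron mutation of Pbx genes. No label names the removed alleles or the driver that removed them. The series design names 9 pooled controls and 9 pooled mutants, without saying how they were divided over libraries. No label states that replicate libraries were made from different embryos, so each p-value measures only the spread between libraries.

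Motor neurons signal to muscle, and preganglionic motor neurons to sympathetic ganglia, with acetylcholine. Choline acetyltransferase, encoded by Chat, makes it from choline and acetyl coenzyme A, the vesicular transporter Slc18a3 loads it into vesicles, and after its breakdown by acetylcholinesterase the choline transporter Slc5a7 takes choline back into the terminal. Prph encodes peripherin, an intermediate filament protein of neurons whose axons leave the central nervous system. Chodl encodes chondrolectin, a membrane protein with a C-type lectin domain that is enriched in fast motor neurons of the mouse and is needed for motor axon growth in zebrafish. Pbx proteins are homeodomain cofactors of Hox proteins, which give motor neurons their identity along the cord.

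The sequences just before the annotated starts of the 4 genes are given because Pbx proteins bind DNA. They are RefSeq promoter windows of the GRCm38.p6 build, not of the build named in the submitters' processing notes, and all 4 genes matched by symbol. Each is read 5′ to 3′ along its gene. The printed stretches of Slc5a7, Prph and Chodl are the whole 250 bases before the RefSeq start. That of Chat has 170 bases and stops 80 bases short of the RefSeq start, where GENCODE M21 annotates an earlier start, while the motif search below covered all 250 bases. Capitals mark CANNTG, the E-box letters read by basic helix-loop-helix factors.
Chat, chr14:32465990-32466159, minus strand: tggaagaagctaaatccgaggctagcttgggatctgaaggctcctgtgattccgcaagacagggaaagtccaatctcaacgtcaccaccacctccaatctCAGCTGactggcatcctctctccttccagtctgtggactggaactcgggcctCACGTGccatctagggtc
Slc5a7, chr17:54299035-54299284, minus strand: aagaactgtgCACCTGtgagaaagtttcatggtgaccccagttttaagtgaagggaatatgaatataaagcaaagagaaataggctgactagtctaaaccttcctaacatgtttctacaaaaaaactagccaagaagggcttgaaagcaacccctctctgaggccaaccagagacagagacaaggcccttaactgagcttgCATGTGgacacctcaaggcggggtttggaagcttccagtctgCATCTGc
Prph, chr15:99054924-99055173, plus strand: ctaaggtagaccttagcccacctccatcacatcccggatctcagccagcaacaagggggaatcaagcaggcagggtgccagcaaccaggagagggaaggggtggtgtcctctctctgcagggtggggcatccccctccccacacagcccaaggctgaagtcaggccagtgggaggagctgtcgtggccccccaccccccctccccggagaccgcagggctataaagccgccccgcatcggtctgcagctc
Chodl, chr16:78930698-78930947, plus strand: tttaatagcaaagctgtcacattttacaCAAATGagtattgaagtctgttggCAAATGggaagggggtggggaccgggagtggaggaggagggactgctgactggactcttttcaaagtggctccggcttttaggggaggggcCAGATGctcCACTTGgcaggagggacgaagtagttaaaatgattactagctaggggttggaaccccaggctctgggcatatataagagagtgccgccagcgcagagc

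On both strands of the 250 bases before the RefSeq start, none of the 4 genes held TGATNNAT, a Pbx-Hox type sequence that 7.68% of 32851 RefSeq windows of that length held. TGATTGAC, a Pbx-Meis type sequence, was also in none of the 4 and in 0.691% of all windows, and TAATTA, a homeodomain core, in none of the 4 and in 4.84% of all windows. CANNTG was in 3 of the 4, Chat with 2 matches, Slc5a7 with 3 and Chodl with 4, against 66.2% of all windows. Since only CANNTG had matches, no overlap between different sequences could arise. These are matches of letters, they show no binding, and enhancers farther away were not searched.

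The 4 genes are listed in the brachial mutant table, which holds 62 genes. They are not listed in the table of thoracic mutants, with 130 genes, or in that of control levels, with 64 genes. Each table holds the genes its authors kept at an adjusted p under 0.05 (with 1 exception each in the thoracic and brachial tables), and for control levels also beyond a log2 fold change of 1. By limma, 94.6% of the thoracic genes passed at an adjusted p under 0.05, 75.4% passed and were lower in mutants, and 98.4% passed between control levels. The values of the 4 genes at the thoracic level were therefore not analysed here, and whether they differ between mutants and controls there cannot be said. Values are normalized counts, that is reads divided by 1 scaling factor per library, and the log2 differences below are those of log2(normalized count + 0.5), mutants minus controls.

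Chat, the acetylcholine-synthesizing enzyme, was lower in brachial mutants. It had 39.2, 62.4 and 73.1 normalized counts in mutant libraries A, B and C, against 131.7, 170.2 and 200.7 in controls A, B and C. Every mutant library lay below every control library, and the highest mutant value was 0.555 times the lowest control value. The means were 58.2 ± 17.3 in mutants and 167.5 ± 34.6 in controls (SD, n = 3 each), which is 65.2% lower, or a log2 difference of -1.54 (SE 0.25, 95% interval -2.13 to -0.95, limma adjusted p = 0.00136).

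Slc5a7, the choline transporter that supplies the same pathway, had a smaller difference. It had 315.5, 339.7 and 460.9 normalized counts in mutant libraries A, B and C, against 433.5, 650.4 and 597.1 in controls A, B and C. Mutant C was at 1.06 times control A, so the groups overlapped, and 8 of the 9 possible pairs of a mutant and a control library were lower in the mutant. The means were 372.0 ± 77.9 in mutants and 560.3 ± 113 in controls (SD, n = 3 each), 33.6% lower, with a log2 difference of -0.59 (SE 0.21, 95% interval -1.07 to -0.11, limma adjusted p = 0.0263). This call is the least firm of the 4: without mutant A, mutant B, control B or control C it did not pass, with differences of -0.48, -0.53, -0.47 and -0.53 and adjusted p between 0.0678 and 0.0816.

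Prph, the axonal intermediate filament gene, was lower in mutants with groups that did not overlap. It had 268.6, 228.0 and 241.5 normalized counts in mutant libraries A, B and C, against 298.8, 473.9 and 440.6 in controls A, B and C. The 3 mutant libraries were close together, whereas control A stood nearer to them than to controls B and C, with mutant A at 0.899 times control A. The means were 246.0 ± 20.7 in mutants and 404.4 ± 93.0 in controls (SD, n = 3 each), 39.2% lower, with a log2 difference of -0.69 (SE 0.19, 95% interval -1.13 to -0.25, limma adjusted p = 0.0115).

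Chodl, the lectin-domain gene of fast motor neurons, was lower by about as much as Chat. It had 61.2, 53.1 and 90.2 normalized counts in mutant libraries A, B and C, against 173.2, 213.0 and 211.0 in controls A, B and C. The highest mutant value was 0.521 times the lowest control value, so the groups did not overlap. The means were 68.1 ± 19.5 in mutants and 199.1 ± 22.4 in controls (SD, n = 3 each), 65.8% lower, with a log2 difference of -1.57 (SE 0.21, 95% interval -2.05 to -1.09, limma adjusted p = 0.000657). A library pools RNA from many cells, and for all 4 genes a lower level in each cell cannot be told apart from a smaller share of cells that express the gene.

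**Figure D1:**
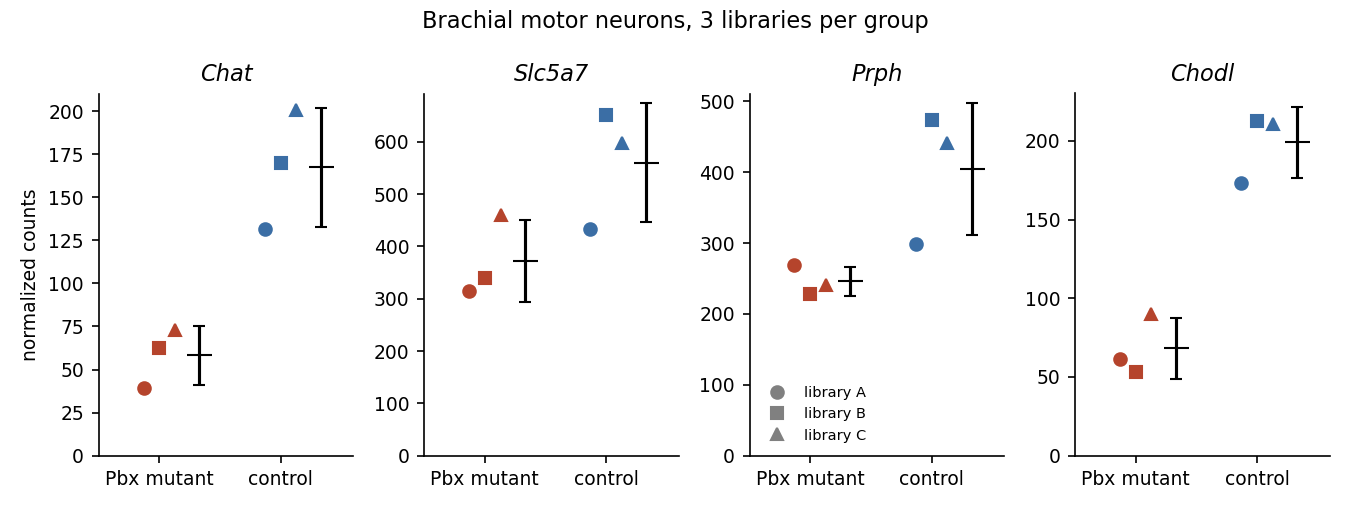
Normalized counts (vertical axis, from 0) of the 4 genes in the 3 brachial Pbx mutant libraries and the 3 brachial control libraries. Symbols are single libraries, and bars are the mean ± SD of each group. The mutant libraries lie below all control libraries for Chat, Prph and Chodl, while for Slc5a7 mutant C (460.9) lies above control A (433.5).

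All 4 genes passed limma and were lower in mutants. Of the 62 listed genes, however, 98.4% passed and 82.3% passed and were lower, since the authors had already chosen the list on these libraries, so the share among the 4 genes is near the background and the limma p-values are not independent evidence. Without control B, 40 of the 62 passed. Likewise 3 of the 4 had groups that did not overlap, beside 96.8% of all listed genes. The median log2 difference was -1.12 over the 4 genes and -0.62 over all 62. Ordered from the most negative difference, Chodl was number 6, Chat 7, Prph 26 and Slc5a7 32 of 62. In the authors' deposited table, where p-values were adjusted over all the genes they tested, the adjusted p was 3.29e-10 for Chodl, 1.96e-07 for Chat, 0.00177 for Prph and 0.0255 for Slc5a7.

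**Figure D2:**
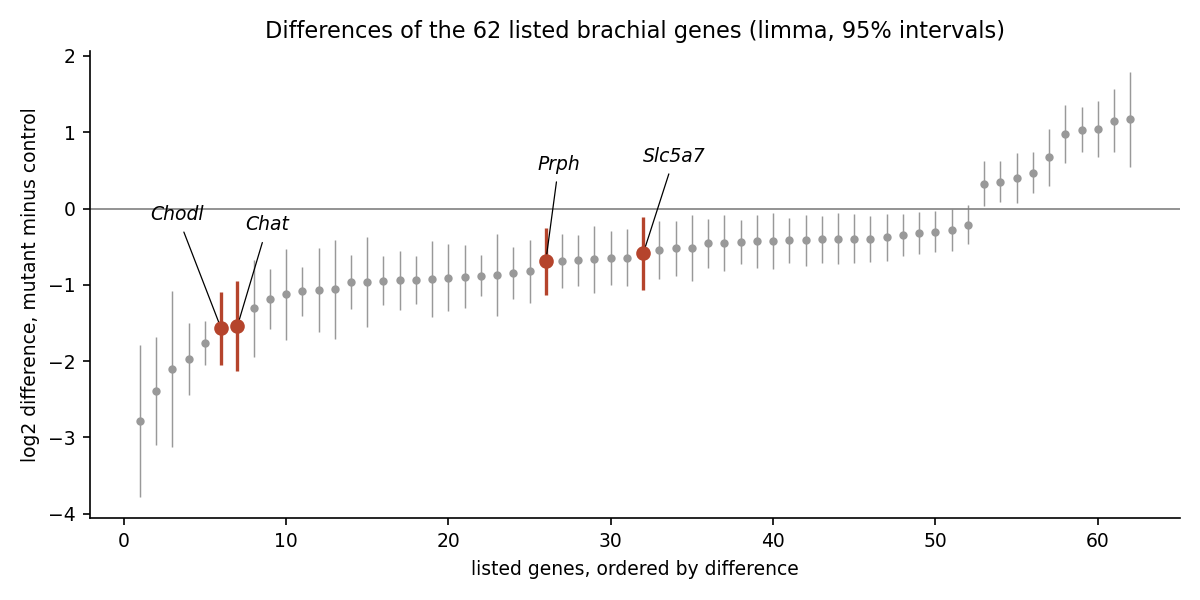
Log2 differences (vertical axis, mutant minus control) of the 62 genes of the brachial mutant table, ordered from the most negative, with 95% limma intervals. The 4 genes are marked in red, with Chodl (-1.57) and Chat (-1.54) among the larger falls and Prph (-0.69) and Slc5a7 (-0.59) near the median of -0.62.

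The authors' own log2 fold changes were smaller than the ratios of group means, most of all for Chat and Chodl. In the authors' deposited table the log2 fold changes were -0.63 (SE 0.0995) for Chat, -0.38 (SE 0.0968) for Slc5a7, -0.45 (SE 0.0974) for Prph and -0.74 (SE 0.101) for Chodl. These are 0.416 (Chat), 0.636 (Slc5a7), 0.624 (Prph) and 0.481 (Chodl) times the log2 ratio of the group means. For the more abundant Pbx3, this share in the authors' deposited table was 0.810.

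Within a library, the ratio of one gene to another does not depend on the scaling factor of that library. The ratio of Chat to Slc5a7, enzyme to transporter, was 0.124, 0.184 and 0.159 in mutant libraries A, B and C, against 0.304, 0.262 and 0.336 in controls A, B and C. The log2 ratio averaged -2.69 ± 0.28 in mutants and -1.74 ± 0.18 in controls (SD, n = 3 each), a difference of -0.95, and the groups did not overlap. This ratio was lower in each mutant library than in each control library, whichever scaling is used.

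The same held for Chodl, whose ratio to Slc5a7 was 0.194, 0.156 and 0.196 in mutant libraries A, B and C, against 0.400, 0.327 and 0.353 in controls A, B and C. The log2 difference was -0.98 for this ratio, -0.85 for Chat over Prph and -0.88 for Chodl over Prph, all with groups that did not overlap. How often ratios between other listed genes separate the groups was not analysed here, so the separation cannot be called particular to these genes. Without mutant A, the difference of Chat over Prph was -0.53. Chat over Chodl differed by 0.03 on the log2 scale (-0.23 ± 0.44 in mutants and -0.26 ± 0.17 in controls, SD, n = 3 each), less than the spread between libraries. Prph over Slc5a7 differed by -0.10 (-0.58 ± 0.35 in mutants and -0.48 ± 0.05 in controls, SD, n = 3 each). This is less than the spread between mutant libraries, though more than that between control libraries, and the groups overlapped. With 3 libraries against 3, the exact two-sided permutation test cannot go below 0.1, which the 4 separated ratios reached, so none of the 6 ratios could pass (Benjamini-Hochberg adjusted exact p = 0.15 for those 4, 0.9 for Chat over Chodl and 0.84 for Prph over Slc5a7). In the log2 differences fitted here, the sizes fall into a pair with the larger falls, Chat and Chodl, and a pair with the smaller, Prph and Slc5a7. The authors' own log2 fold changes are more evenly graded, at -0.74 for Chodl, -0.63 for Chat, -0.45 for Prph and -0.38 for Slc5a7.

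**Figure D3:**
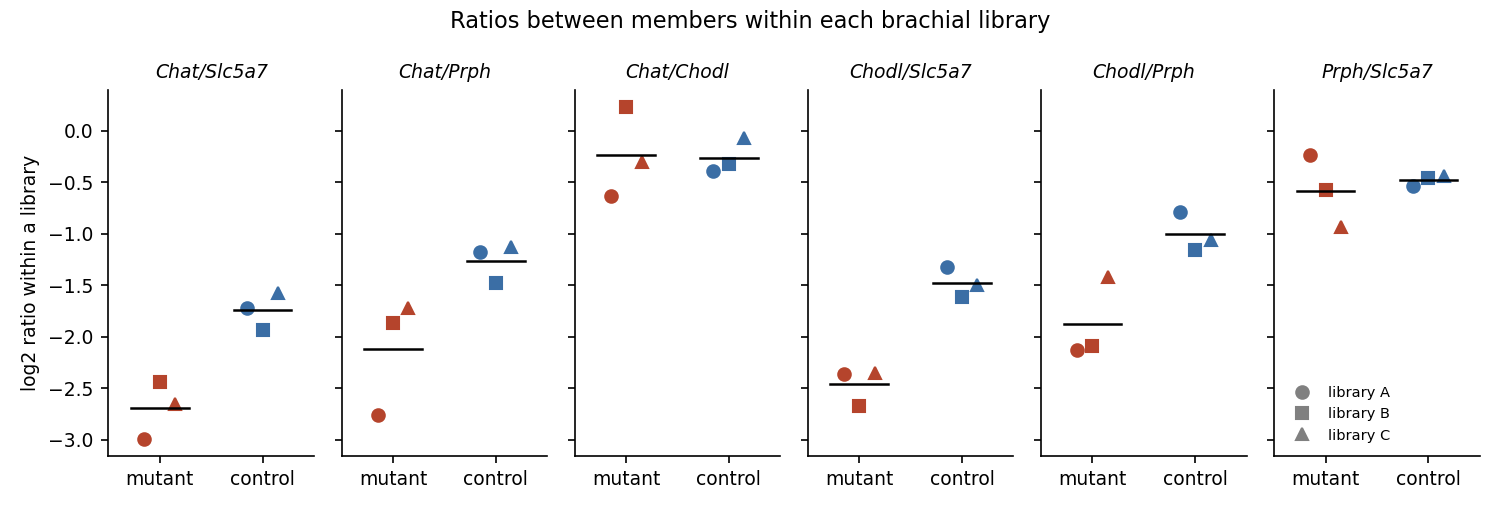
Log2 ratios (vertical axis) between each pair of the 4 genes within each library, for brachial mutants and brachial controls. Symbols are libraries, and horizontal lines are group means. The groups separate for Chat/Slc5a7, Chat/Prph, Chodl/Slc5a7 and Chodl/Prph, and overlap for Chat/Chodl and Prph/Slc5a7.

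Per kilobase of exon (union of annotated exons, GENCODE M21 on GRCm38), Prph was the most abundant of the 4 in both groups. It averaged 123.1 ± 10.3 normalized counts per kilobase in mutants and 202.3 ± 46.5 in controls, and Slc5a7 averaged 65.9 ± 13.8 in mutants and 99.3 ± 20.0 in controls (SD, n = 3 each). Chodl, with 12.4 ± 3.55 in mutants and 36.3 ± 4.08 in controls, and Chat, with 12.4 ± 3.69 in mutants and 35.6 ± 7.36 in controls (SD, n = 3 each), did not differ from each other beyond their spread in either group. These lengths are not those of the annotation the authors counted on, and the amplification of cDNA can change levels between genes.

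Chat rested on the fewest reads. Taking 1 step of the values as 1 read, Chat had 41, 67 and 73 reads in mutant libraries A, B and C, against 130, 163 and 195 reads in controls A, B and C. Summed over 3 libraries, Chodl had 211 reads in mutants and 580 in controls, Prph 767 in mutants and 1177 in controls, and Slc5a7 1155 in mutants and 1631 in controls. The coefficient of variation of Chat between libraries was 29.8% in mutants and 20.7% in controls, where counting alone gives 13.2% in mutants and 7.92% in controls. For Slc5a7 the libraries varied by 20.9% in mutants and 20.2% in controls, where counting alone gives 5.13% in mutants and 4.33% in controls. Prph varied by 8.41% in mutants, near its counting error of 6.27%, and by 23.0% in controls. The median listed gene varied by 11.2% in mutants and 11.7% in controls. Counting errors leave out what amplification adds.

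The 4 genes shared their lowest control library. Control A was the lowest control library for all 4, and for 62.9% of the 62 listed genes. Mutant A was the lowest mutant library for 2 of the 4, Chat and Slc5a7, and for 51.6% of listed genes. Control B was the highest for Slc5a7, Prph and Chodl and control C for Chat, and mutant C was the highest mutant library for Chat, Slc5a7 and Chodl, as it was for 51.6% of listed genes. The level of the libraries moves with the differences of the 4 genes. Its part in them was looked at only by ratios within libraries, by leaving out libraries, by the centring below and by a block for the replicate letter. Without control A the log2 differences were -1.70 for Chat, -0.76 for Slc5a7, -0.90 for Prph and -1.67 for Chodl.

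With each library centred on the median deviation of the listed genes, Chat (-0.98, SE 0.22, limma adjusted p = 0.00994) and Chodl (-1.01, SE 0.17, limma adjusted p = 0.00241) still passed. Slc5a7 (-0.026, SE 0.15, limma adjusted p = 0.867) and Prph (-0.13, SE 0.16, limma adjusted p = 0.510) did not. The centring shifts the median difference of the list, which was -0.62, to -0.05, so differences near the median come close to 0 by it alone. Over single left-out libraries, the differences of Chat ran from -1.73 to -1.28, those of Chodl from -1.79 to -1.41 and those of Prph from -0.90 to -0.56, all of them passing limma.

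**Figure D4:**
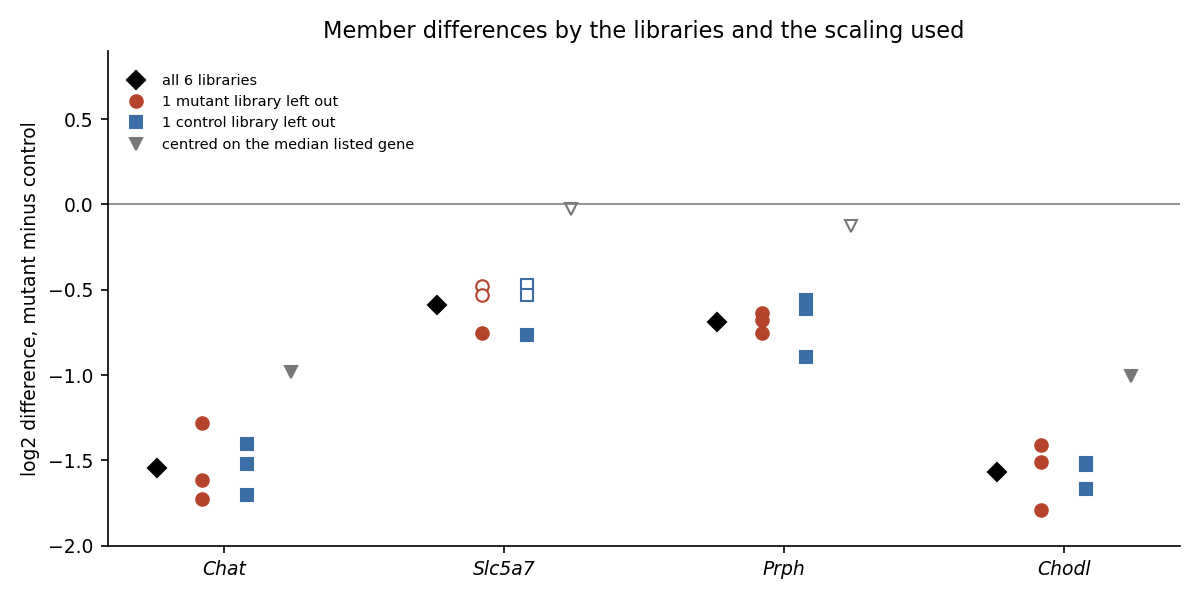
Log2 differences (vertical axis, mutant minus control) of the 4 genes with all 6 brachial libraries, with 1 library left out, and with libraries centred on the median listed gene. Filled symbols passed limma at an adjusted p under 0.05 and open symbols did not. Chat and Chodl stay filled throughout, and 4 of the 6 left-out values of Slc5a7 are open.

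Of 15 genes of acetylcholine synthesis, transport and breakdown, the brachial mutant table listed 2, Chat and Slc5a7, both lower. Both were chosen beforehand for this description, so the count adds no separate result. Slc18a3, whose gene lies inside the span of Chat on the same strand without sharing exon sequence in GENCODE M21, and Ache, which encodes acetylcholinesterase, are not in the list and were not analysed here. Of 22 acetylcholine receptor genes 1 was listed, Chrnb4, a nicotinic subunit, which averaged 73.3 ± 15.1 normalized counts in mutants and 135.4 ± 16.4 in controls (SD, n = 3 each), a log2 difference of -0.90 (SE 0.18). Both the enzyme and this receptor subunit were lower, in libraries that did not overlap. Most listed genes were alike in this: 82.3% of the 62 passed and were lower, and 96.8% had groups that did not overlap.

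Of 27 genes gathered for intermediate filaments and the axon cytoskeleton, 2 were listed and lower, Prph and Cntn2 (log2 difference -0.68, SE 0.15). Cntn2 is an axonal adhesion gene rather than a cytoskeletal one, so Prph was the only filament gene listed. Among all 62 listed genes, 82.3% passed and were lower. None of the neurofilament genes Nefl, Nefm and Nefh and the filament gene Ina was listed. Of 22 genes of the synapse and transmitter release, 1 was listed, Sncg, which encodes gamma-synuclein and fell to 128.5 ± 16.8 normalized counts in mutants, against 248.3 ± 44.6 in controls (SD, n = 3 each; log2 difference -0.94, SE 0.17). Of 21 markers of motor neuron type and maturation, Chodl and Prph were the 2 listed, both of them among the genes chosen for this description. With the centring, Chrnb4 (-0.33), Cntn2 (-0.12) and Sncg (-0.38) stayed below 0 and did not pass.

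Of 21 general motor neuron transcription factors, 1 was listed, Ebf2, at 234.9 ± 11.9 normalized counts in mutants and 433.9 ± 21.1 in controls (SD, n = 3 each; log2 difference -0.88, SE 0.12). Mnx1, Isl1, Isl2 and Lhx3, which specify motor neurons, were not in the list. Pbx3, which encodes a Pbx protein, was lower, with 1766.6 ± 241 normalized counts in mutants and 2764.2 ± 333 in controls (SD, n = 3 each; log2 difference -0.65, SE 0.15), and with the centring it stood at -0.086 and did not pass. Which Pbx genes were deleted is not stated in the labels, so this RNA level does not check them. Among Pbx mutants, Pbx3 was lowest in mutant C, the library in which Chat, Slc5a7 and Chodl were highest. Mutant C was also the highest mutant library for 51.6% of the 62 listed genes, while Prph was highest in mutant A. A relation between Pbx3 and the 4 genes was not tested.

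No marker of another cell type, of 86 for progenitors and glia, interneurons, sensory ganglia, blood and vessels, and mesenchyme, was in the brachial mutant list. Of 7 motor neuron markers it held Chat, Slc5a7 and Prph. All of these are among the genes chosen for this description, so their listing is no separate result and cannot be set against the 86. Unlisted markers have no values here, so the purity of the sort and its part in the differences were not tested.

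The listed genes most like each of the 4, by Pearson r of log2 values over the 6 brachial libraries, were named with the group difference included in r, so a high r is found for most of the list. For Chat these were Qk, an RNA-binding protein gene (r = 0.998), Mcc (0.991) and the transcription factor gene Creb5 (0.987), where the median over the other listed genes was 0.887. For Slc5a7 they were the netrin receptor gene Unc5c (r = 0.975), Tmtc1 (0.972) and the guidance ligand gene Slit2 (0.958), with a median of 0.798. For Prph they were Orc4 (r = 0.983), Dkk3 (0.963) and Clstn2 (0.954), with a median of 0.818, and for Chodl the cytokine receptor gene Lifr (r = 0.982), Ebf2 (0.976) and Arhgap5 (0.974), with a median of 0.876. Likeness in shape was not likeness in size: Qk, closest to Chat, had a log2 difference of -0.30 (SE 0.12), Lifr, closest to Chodl, one of -0.69 (SE 0.15), while Unc5c at -0.42 (SE 0.16) and Orc4 at -0.38 (SE 0.13) were nearer to Slc5a7 and Prph in size. Each of these 12 genes passed limma and was lower in mutants, which their choice by r with the group difference included favours. Of all 62 listed genes, 82.3% passed and were lower. With the centring, 7 of the 12 turned positive (Qk, Unc5c, Tmtc1, Slit2, Orc4, Clstn2 and Arhgap5). The same 7 lost their calls without control B, with differences between -0.46 and -0.29.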

How the data were processed

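Per the labels' protocols, RNA of sorted cells was turned into cDNA and amplified, and libraries took further rounds of PCR. The submitters' processing notes name the builds mm9 and NCBIM37 and the tools HTSeq 0.6.1p1, DESeq2 1.12.3, Picard 1.88 and Bowtie 1.0.0, without settings or the use of strand. The sheets call the deposited per-library values CPM, but they behave as a normalized signal: in each library 100% of the nonzero values are whole multiples of 1 step (tolerance 1e-06), and the row mean is the authors' mean column. The planned tests were made on this unit. The log2 fold changes with their SE, test scores, p-values and adjusted p-values come from the authors' own model, as deposited. Listed genes held between 39381 and 52090 reads per brachial library if 1 step is 1 read, and library totals were not analysed here. Replicate libraries differed by more than counting error (chi-square per gene between 3.97 and 15.7).

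Values were taken as log2(normalized count + 0.5), unfiltered, and fitted with limma 3.58.1 (R 4.3.3) within each table, with Benjamini-Hochberg adjustment over its genes and a threshold of 0.05. The fit was tested on simulated data. Ratios within libraries were compared by exact permutation tests (scipy 1.17.1). Effects were not compared between levels by an interaction test. The 4 genes are listed in 1 mutant table alone, and for genes listed in both mutant tables the test was not made. The members, lists and tests were chosen with earlier results of these data known. The text names the 4 genes, listed genes of the pathway lists and, at the thoracic level, of the marker lists, the 3 genes most like each member, and Pbx3. A result that names a withheld gene is not reported here. Genes named as unlisted were picked from the lists. Alternatives were the authors' adjusted p, limma with an intensity trend, centring each library on the median listed gene, leaving out each library, a block for the replicate letter, a mean of at least 1 normalized count, and pseudocounts of 0.1 and 2. A planned count test was not run, since the tables hold too few low values to recover reads by the rule set for it.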

Additional observations from a re-analysis of the deposited data

How the results depend on the processing

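Chat and Chodl kept their direction and passed limma under every alternative that was run. Slc5a7 and Prph no longer passed with libraries centred on the median listed gene (-0.026 and -0.13), and Slc5a7 also lost its call without mutant A, mutant B, control B or control C (-0.48, -0.53, -0.47 and -0.53). Over all 6 left-out libraries its difference ran from -0.76 to -0.47. The genes passing numbered 23 (brachial mutants), 59 (thoracic mutants) and 35 (control levels) with the centring, against 61, 123 and 63 without it, with 11 higher and 12 lower, 30 higher and 29 lower, and 24 higher and 11 lower in the same order. The centring moved the median listed difference in each table, by its own construction. Leaving out single libraries gave between 40 and 58 genes passing in brachial mutants, 40 of them without control B. With the centring, the brachial differences of Qk (0.26), Unc5c (0.14), Tmtc1 (0.023), Slit2 (0.17), Orc4 (0.19), Clstn2 (0.11) and Arhgap5 (0.24) turned positive, as did the thoracic ones of Pbx3 (0.055), Cntn2 (0.22), Ebf1 (0.36), Ebf2 (0.019) and Nes (0.17). Gene by gene, libraries with the same letter did not deviate together in brachial cells (correlations 0.10, -0.49 and -0.24 for A, B and C), so the letters were not taken as pairs. A shift common to all genes of a library does not enter these correlations. Library A was the lowest for 51.6% of listed genes in mutants and 62.9% in controls, and Chat rose from A to C in both groups. The replicate block left 60 brachial genes passing, all 4 members among them (Chat -1.54, limma adjusted p = 0.00489). With the block, the SE of Chat went from 0.25 to 0.11, the smallest of the 4. The SE also fell for Slc5a7 (0.21 to 0.15) and Chodl (0.21 to 0.18), and rose for Prph (0.19 to 0.21). With all 6 libraries and no block, Chat, with 41 to 73 reads in mutants, is the member whose size is least precise. Slc5a7 is the one whose call depends on single libraries.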

Other observations

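The thoracic mutant table, which lists none of the 4 genes and 0 of 15 genes of acetylcholine synthesis, transport and breakdown, listed other genes of transmission. Syt2, a calcium sensor of vesicle release, had 226.0, 138.4 and 172.7 normalized counts in thoracic mutant libraries A, B and C, against 378.3, 404.1 and 485.3 in thoracic control libraries A, B and C (log2 difference -1.26, SE 0.21, limma adjusted p = 0.00247), and also passed with the centring (-0.61). Sncg averaged 173.1 ± 58.5 in thoracic mutants and 371.6 ± 23.8 in thoracic controls (SD, n = 3 each), a log2 difference of -1.15 (SE 0.24; -0.51 with the centring, not passing), and was the 1 gene of the synapse list in both mutant tables. Chrm2, a muscarinic receptor gene, had a log2 difference of -0.85 (SE 0.26), which did not pass without mutant B (-0.67) or with the centring (-0.21). Syt1, at 0.27 (SE 0.13, limma adjusted p = 0.0763), did not pass, except with the centring (0.92), with the intensity trend and in the authors' deposited table. Nes of the cytoskeleton list, the adhesion gene Cntn2 counted in that list, Ebf2 and Pbx3 were also lower at the thoracic level, though their differences turned positive with the centring. Ebf1 (-0.29, SE 0.14, limma adjusted p = 0.0710) did not pass, except as lower with the intensity trend and in the authors' deposited table, and as higher with the centring (0.36). Of 86 markers of other cell types, the thoracic mutant table listed 2, both lower. These were Nes, which also marks spinal progenitors, and the mesenchyme marker Postn, with 7.91 ± 2.49 normalized counts in thoracic mutants and 35.4 ± 7.96 in thoracic controls (SD, n = 3 each; log2 difference -2.12, SE 0.28, limma adjusted p = 0.00108), which also passed with the centring (-1.47). Their part in the thoracic differences was not tested. Nes lost its call without mutant A, mutant B or control B, with differences from -0.48 to -0.34, and Cntn2 without mutant A, control A or control B, with differences from -0.39 to -0.37. Of all 130 listed thoracic genes, 75.4% passed and were lower. Between control levels, 1 gene of the motor neuron type list was listed, Uts2b, a neuropeptide gene, with 38.2 ± 13.3 normalized counts in brachial and 122.6 ± 18.2 in thoracic controls (SD, n = 3 each; log2 difference -1.72, SE 0.29). How these effects compare between the levels was not tested.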
